A study of Homo sapiens with 18 samples.

Results

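The unspliced RNA of 13154 genes was compared between total RNA, which is RNA at steady state, and RNA made within the last 60 min in HEK293 cells, a human embryonic kidney line. These were the genes with a value for a primary (unspliced) transcript, a mean of at least 1 TPM (transcripts per 1000000 transcripts) of mature RNA and a mean of at least 0.1 TPM of primary RNA over 6 libraries, out of 63568 gene entries, of which 38500 had a primary value. Most genes kept little unspliced RNA at steady state. The median unspliced share, the primary TPM as a percent of primary plus mature TPM, was 2.04%, 3.27% and 2.43% in the 3 total libraries and 11.4%, 15.9% and 17.3% in the 3 newly made ones. A share of at least 20% in each total library was held by 292 genes, of which 133 were long non-coding RNA genes and 91 were protein-coding genes.

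A primary transcript is the copy of a gene before its introns are removed. The spliceosome removes most introns while RNA polymerase is still on the gene or soon afterwards, so unspliced RNA is a large part of young RNA and a small part of all RNA for genes whose mRNA is stable. Some transcripts hold single introns for longer in the nucleus, known as retained or detained introns, and many long non-coding RNAs are spliced slowly or in part.

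The libraries came from a series that set out to class coding and non-coding human genes by how their RNA is made and lost. Newly made RNA was marked with 4-thiouridine, a uridine analogue given to the cells at 500 µM, then biotinylated and taken out on streptavidin. The 3 libraries labelled for 60 min are called A, B and C. The 3 total libraries did not pass over streptavidin and differed in how ribosomal RNA was kept out, 1 library per method: oligo-dT selection of poly(A) RNA, depletion with RNase H and DNA oligos, and depletion with Ribo-Zero. The labels give no labelling time for the total libraries and no method against ribosomal RNA for the labelled ones, so selection and labelling cannot be told apart in the comparison of these groups. The labels do not say whether the libraries of a group had cultures of their own, so each p-value reflects the spread among these 6 libraries, part or all of which may be technical.

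TPM carry no read depth, so the depth of each library is unknown. Primary transcripts held 0.528% to 0.879% of all TPM in the total libraries and 7.19% to 11.03% in the labelled ones, and the median primary level of the 13154 genes was 0.21 to 0.4 TPM in total RNA. Of the markers of the line, LIN28B (an RNA-binding protein of embryonic cells) stood at 23.3 to 31.8 TPM in total and 57.3 to 68.4 TPM in labelled RNA and PAX2 (a kidney transcription factor) at 0.15 to 6.2 TPM, while SOX11 was listed at 0 in all 6 libraries and NEFM was at most 0.61 TPM. Of 27 markers of other cell types, 22 were at most 1 TPM in every library. Their summed level was 17.8 to 51.2 TPM in total and 6.39 to 9.22 TPM in labelled RNA, carried mainly by ACTA2 and HBA1 in total RNA, and their part in the results was not tested. Because RNA came from bulk cultures, fewer cells holding a transcript and less of it per cell cannot be told apart.

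To show what is being counted, introns of 5 genes from different ends of the results are printed 5′ to 3′ with their first and last 2 bases, the splice site letters, in capitals. Each is removed in a coding transcript and left in place in a transcript that GENCODE 29 classes as retained intron. They were read from the GENCODE 29 transcript sequences and placed on GRCh38, whereas the TPM rest on hg19. The first, from FAM229A, belongs to a gene that held at least 20% unspliced RNA in each total library. The CCNL1 intron comes from a gene with a small change of its ratio. The PAXX intron comes from a gene with a lower unspliced share in the poly(A) library. The MCM7 and QARS1 introns come from genes whose unspliced share, which also depends on mature RNA, was small at steady state.
FAM229A, chr1:32361877-32361957, minus strand: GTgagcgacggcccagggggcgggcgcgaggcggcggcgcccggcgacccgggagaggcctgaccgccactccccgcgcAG
CCNL1, chr3:157149978-157150064, minus strand: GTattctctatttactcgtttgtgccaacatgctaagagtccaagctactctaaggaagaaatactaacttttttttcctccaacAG
PAXX, chr9:136992563-136992639, plus strand: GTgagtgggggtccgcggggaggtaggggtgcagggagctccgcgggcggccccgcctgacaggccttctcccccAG
MCM7, chr7:100099204-100099278, minus strand: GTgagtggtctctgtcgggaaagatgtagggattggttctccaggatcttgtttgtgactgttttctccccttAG
QARS1, chr3:49098118-49098191, minus strand: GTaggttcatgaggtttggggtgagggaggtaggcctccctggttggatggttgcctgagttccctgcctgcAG
The 5 introns were 81, 87, 77, 75 and 74 nucleotides long in that order, and their GC content ran from 36.8% in CCNL1 to 84.0% in FAM229A. The TPM describe each gene as a whole, not these introns alone.

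The first comparison asked how much of the unspliced RNA seen in newly made RNA was left at steady state. The 3 total libraries had a mean median share of 2.58% ± 0.63 (SD, n = 3) and the labelled ones 14.9% ± 3.11 (SD, n = 3), a difference of -12.3 percentage points. Every total library lay below every labelled library, and the two-sided exact permutation test gave p = 0.1, the smallest that 3 against 3 libraries allow. Among the labelled libraries A was the lowest, and among the total ones poly(A) was.

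**Figure D1:**
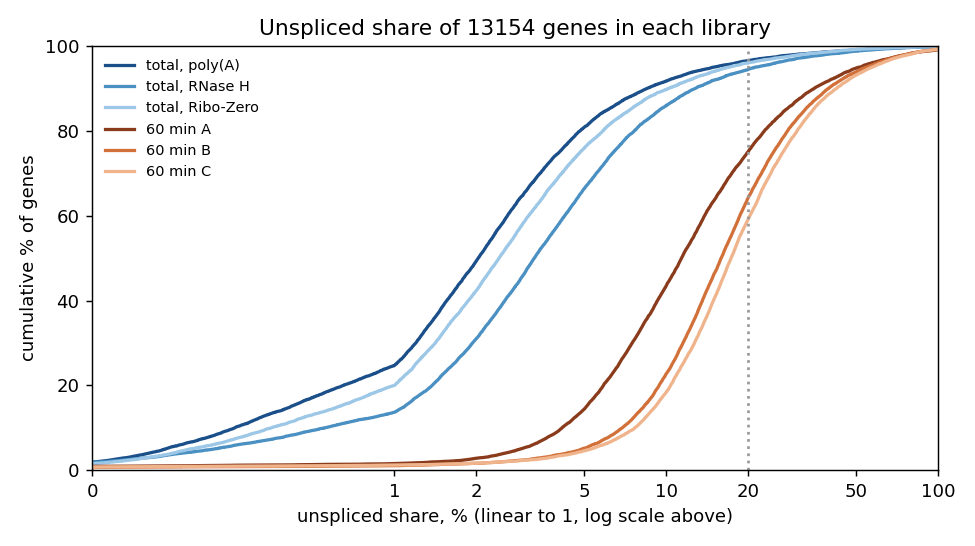
Cumulative percent of the 13154 genes (y axis) at or below an unspliced share (x axis, percent, linear to 1 and on a log scale above) in each library. The 3 total libraries (blue, medians 2.04% to 3.27%) lie left of the 3 labelled libraries (orange and brown, medians 11.4% to 17.3%), and the dotted line marks 20%.

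For single genes, the ratio of primary to mature TPM was taken as log2((primary + 0.1)/(mature + 0.1)) and tested with limma, with Benjamini-Hochberg adjustment over all 13154 genes and a threshold of 0.05. The ratio was lower in total RNA for 10652 genes, 81.0% of those tested, and higher for 83 genes, 0.631%. The median change was -2.24 on this log2 scale, which understates the change of low genes. The libraries of both groups did not overlap, with total lower, for 10497 genes (79.8%) and, with total higher, for 84 genes (0.639%). With a pseudocount of 1 instead, 7094 genes were lower and 476 higher, and without the RNase H library 55 were higher.

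The primary TPM by themselves were lower in total RNA for 12905 genes (98.1%) and higher for 10 (0.076%, or 17, 20 and 21 genes without A, B or C), with a median change of -3.23 on the log2(TPM + 0.1) scale. TPM are relative to everything in a library, and a scaling that makes the primary transcripts of the libraries comparable among themselves took away that shift: with median-ratio scaling, 370 genes were lower and 437 higher. Of the 13154 genes, 1895 had a mean primary level under 0.1 TPM in total RNA and met the rule only through the labelled libraries. Their primary TPM thus had to be lower in total RNA. This also favours a lower ratio in total RNA, and these genes stay in the counts of the ratio above. Listed at 0 in all 3 total libraries were 77 genes. In the other direction, 13 genes had a mean under 0.1 TPM in labelled RNA. For mature RNA, 660 genes had a mean under 1 TPM in total RNA and met the rule only through the labelled libraries, which favours a higher ratio in total RNA, and 130 had a mean under 1 TPM in labelled RNA.

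Because nearly every gene moved the same way, each gene was also compared with the typical gene, by centring the log2 ratios of each library on their median, a choice made after seeing the data. On this centred scale 3317 genes (25.2%) were lower and 2680 (20.4%) were higher in total RNA. A gene that is higher on this scale had a ratio, pseudocount included, that fell less than that of the typical gene or rose. It may still have a lower ratio than at 60 min. The higher genes had median primary and mature levels of 0.2 and 4.25 TPM in total RNA, and the lower genes 0.437 and 38.6 TPM. The pseudocount understates the change of low genes, and centring was run with 0.1 only. Level and loss thus cannot be told apart on this scale.

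The 292 genes with a share of at least 20% in each total library were 2.22% of the 13154 genes. Taken by library, 457 genes passed 20% in poly(A), 732 in RNase H and 529 in Ribo-Zero RNA. The count was 798 at a limit of 10% and 53 at a limit of 50%. Just inside the limit stood TNFRSF13C (a receptor of B cells) with a lowest share of 20%, and just outside stood LINC02985 with 19.9% and GSK3B-DT with 19.8%. Of the 292 genes, 275 also had at least 20% in each labelled library, which 2731 of all genes had. The 292 were chosen by their shares in total RNA, so the calls of their ratio are a description: it was lower in total RNA for 89, higher for 10 and not past the test for 193. Their mature RNA was low there: the 10 higher genes had a median of 0.51 TPM in total and 8.71 TPM in labelled RNA, and the 193 had 0.817 and 3.54 TPM.

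By gene class, 133 of 641 long non-coding RNA genes (20.7%), 23 of 266 pseudogenes (8.65%) and 91 of 11520 protein-coding genes (0.790%) were among the 292, along with 45 of 726 entries without a type in GENCODE 29. Long non-coding RNA genes had a median share of 10.7%, 15.9% and 11.5% in poly(A), RNase H and Ribo-Zero RNA and of 34.8% to 41.0% in the labelled libraries. Protein-coding genes had 1.90%, 3.06% and 2.25% in total and 10.8% to 16.7% in labelled RNA. Both classes were thus lower in every total library than in every labelled one.

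The genes that kept unspliced RNA were short, with few introns. Where a GENCODE 29 gene model was known (84.6% of the 292 and 94.5% of all), their median locus was 10618 nucleotides against 34981 for all genes, and their median number of introns was 4 against 15. Their median mature level in total RNA was 1.06 TPM against 11.3 TPM, so a change of few reads moves their share more. Mature RNA in these libraries is part of the share that the 292 were chosen by, so the choice itself favours a low mature level. A retained-intron transcript was annotated for 17.8% of them and for 55.8% of all genes. Over protein-coding genes alone this was 28.6% against 59.2%, so part of the contrast goes with gene class. Another gene overlapped on the same strand for 43.7% of the 292 against 35.4% of all genes. An overlapping gene can add reads to the locus that the primary transcript spans, and its part in the share was not tested. Of the protein-coding genes, 7 had no intron in GENCODE 29 and yet had median shares of 6.63% in total and 24.1% in labelled RNA. Of these 7, 0 were among the 292. Over protein-coding genes with introns, the share of genes that were among the 292 was 4.97% with 1 intron and 4.69% with 2 to 3. It was 1.74% with 4 to 7, 0.608% with 8 to 15 and 0.210% with 16 or more. Where introns took under 25% of the locus it was 4.27%, and it was 2.87% from 25% to 50%. It was 1.21% from 50% to 75%, 0.426% from 75% to 90% and 0.489% from 90%. Where introns take little of the locus, little sequence separates primary from mature transcripts. The part of this in the share was not tested.

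Where primary and mature levels reached 0.5 TPM in each total library, 109 of 2285 genes kept at least 20%, of which 37 were protein-coding. Named below are 16 protein-coding and 7 other genes among those with the highest lowest share. BBS10, a chaperonin-like protein needed for the ciliary BBSome, stood first among coding genes with shares of 58.2%, 57.9% and 64.8% in poly(A), RNase H and Ribo-Zero RNA and of 97.0%, 93.4% and 73.2% in A, B and C. Its only intron takes 9.42% of its locus on chromosome 12 (GRCh38, 76344474 to 76348442), so little sequence separates its primary from its mature transcript. The libraries did not overlap, yet the change of -2.77 (SE 1.26) did not pass the test (limma adjusted p = 0.0565), and passed it without C (limma adjusted p = 0.0162) and without limma's trend (limma adjusted p = 0.0051).

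TRIM56, a ubiquitin ligase of the antiviral response, had shares of 63.7%, 73.4% and 51.0% in total RNA and of 38.5%, 47.0% and 50.6% in labelled RNA. Its total libraries were all above its labelled ones, by a change of 1.00 (SE 0.72) that did not pass the test (limma adjusted p = 0.211). RBM15, an RNA-binding protein of the complex that writes m6A on RNA, had 46.4%, 34.7% and 57.0% in total RNA and 26.7%, 39.3% and 49.1% at 60 min. Its groups overlapped (change 0.47, SE 0.65, limma adjusted p = 0.505). Its primary level fell by 2.97 on the log2 scale (limma adjusted p = 1.44e-06), beside a median change of -3.23 over all genes, of which 98.1% were lower. Its primary and its mature TPM were both lower in every total library than in every labelled one.

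CDKN2B, the cyclin-dependent kinase inhibitor p15, had 28.5%, 28.1% and 32.8% in total RNA and 23.4%, 37.6% and 45.9% at 60 min, with overlapping groups.

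HOXD10, a homeobox transcription factor of body patterning, had the highest primary level of the 16 genes at 60 min. Its primary TPM were 19.6, 15.6 and 6.84 in total RNA and 93.2, 121 and 129 at 60 min, and its shares were 41.4%, 47.5% and 41.1% against 66.3%, 74.0% and 76.2%. The ratio fell by 1.77 (SE 0.74, limma adjusted p = 0.0411), and HOXD11 overlaps it on the same strand. ACBD6, an acyl-CoA binding protein with a locus of 233300 nucleotides, had 47.1%, 70.1% and 43.0% in total RNA against 95.4%, 74.2% and 84.3%, and its ratio fell by 2.48 (SE 1.08, limma adjusted p = 0.0485). Both calls rest on few libraries: HOXD10 passed the test only without A among the 6 fits that left out 1 library (limma adjusted p up to 0.115), and ACBD6 missed it without poly(A), Ribo-Zero or A (up to 0.161).

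ALG10 and ALG10B, near copies that add the last glucose to the sugar chain used in protein glycosylation, had shares of 37.5%, 39.6% and 31.0% and of 27.7%, 27.4% and 30.6% in total RNA. Reads shared between such copies make their values uncertain. SAYSD1 had 28.4%, 29.3% and 28.8% in total RNA, the closest agreement between the 3 methods among these genes (28.9% ± 0.45, SD, n = 3), against 45.4%, 42.5% and 48.4% at 60 min.

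FAM229A, whose intron is printed above, disagreed most between methods, with 71.0% in poly(A), 56.9% in RNase H and 27.3% in Ribo-Zero RNA, against 60.5%, 36.3% and 47.6% at 60 min. P2RY11, a receptor for extracellular ATP, held 43.9% to 48.9% in total RNA and is overlapped by PPAN and a readthrough of both genes. The other coding genes were ZSCAN23, TRIM52, CEACAM19, FAM200C and POLR2J2, with lowest shares of 28.0% to 43.7%. POLR2J2, a copy of a polymerase II subunit gene, had mature RNA listed at 0 in all 3 labelled libraries.

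The 7 non-coding genes were led by TMPO-AS1, an antisense transcript of the lamina protein gene TMPO, with 84.8%, 86.2% and 83.4% in total RNA and 85.6%, 74.6% and 100.0% at 60 min. Its groups overlapped and the methods agreed within 3 percentage points. DNAJC9-AS1 had 79.4%, 85.6% and 67.5% against 96.3%, 90.3% and 92.9%. FAM131B-AS2, LINC00641, FAM88B, PCGF3-AS1 and MCF2L-AS1 had lowest shares of 57.0% to 62.9%. None of the 7 passed the test of the ratio, though FAM88B passed it without A or C and PCGF3-AS1 without B or C (limma adjusted p = 0.0137 to 0.0282). Without limma's trend FAM88B, PCGF3-AS1 and DNAJC9-AS1 passed it (limma adjusted p = 0.0187, 0.0205 and 0.00332). TMPO, PCGF3 and MCF2L lie on the other strand over their antisense genes, and the sources used here do not say whether reads were counted by strand, so reads of both partners cannot be told apart.

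**Figure D2:**
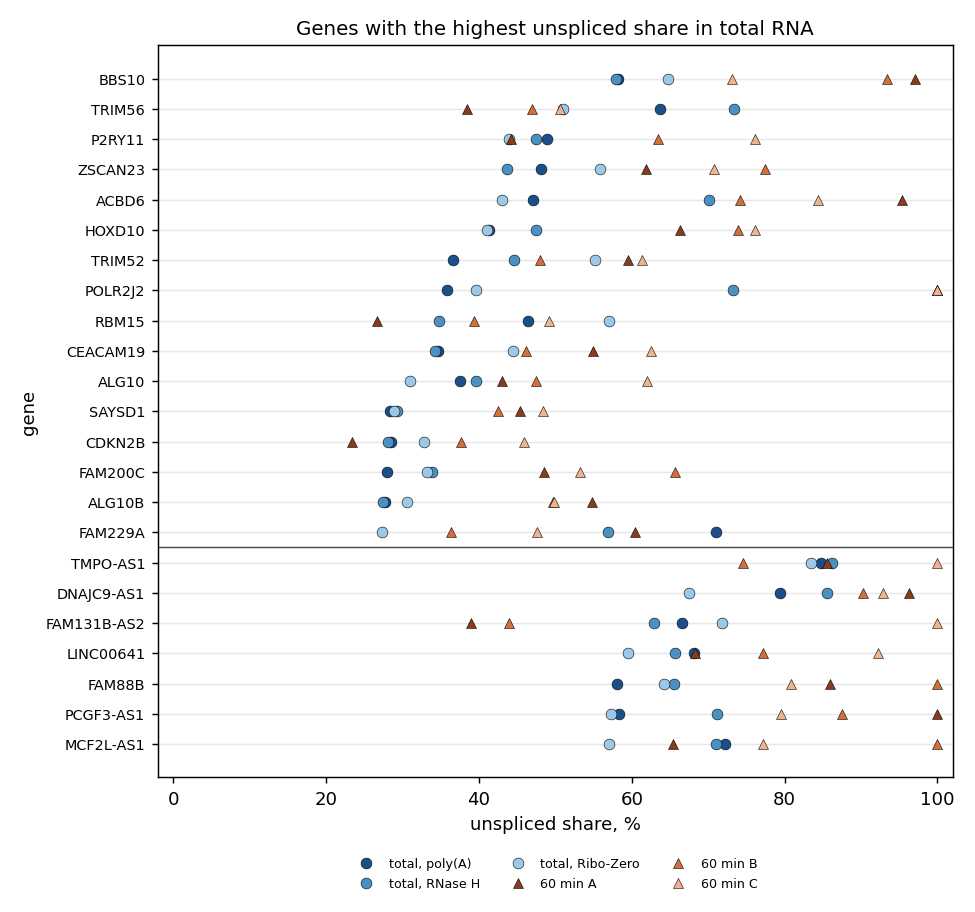
Unspliced share (x axis, percent) of 16 protein-coding genes (above the line) and 7 other genes (below it) among those with the highest lowest share in total RNA, with 1 point per library, circles for total and triangles for labelled 60 min libraries. SAYSD1 has its 3 circles between 28.4% and 29.3%, and FAM229A has them between 27.3% and 71.0%.

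Only 6 genes with a symbol and means of at least 1 TPM met the rule for naming the rises of the ratio, which asked for a passed test and groups that do not overlap. FBXL14, an F-box protein of ubiquitin ligases, had shares of 20.5%, 31.3% and 22.0% in total RNA and 10.9%, 12.2% and 17.7% at 60 min, a rise of 1.09 (SE 0.46, limma adjusted p = 0.0439). Its mature RNA was 4.22 to 11.5 TPM in total and 53.9 to 99.7 TPM in labelled RNA, while its primary RNA was 1.92 to 2.97 and 10.4 to 12.2 TPM. Both were lower in total RNA, the mature RNA by more.

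GVQW3 had shares of 24.7%, 34.4% and 24.2% against 13.1%, 13.1% and 14.2%, a rise of 1.43 (SE 0.45, limma adjusted p = 0.0101). MKRN3, an imprinted ring finger gene, had 15.1%, 22.4% and 12.7% against 6.59%, 10.5% and 12.4%, a rise of 1.10 (SE 0.45, limma adjusted p = 0.0373). RSL1D1-DT and LINC02226 also rose, but with mature RNA of at most 0.59 TPM in every total library. FOXB1, a forkhead transcription factor, rose by 0.99 (SE 0.43, limma adjusted p = 0.048) at shares of 3.16%, 5.74% and 5.17% against 3.56%, 3.85% and 3.85%; its poly(A) share was below the labelled ones, and its ratio with the pseudocount was above them. With a pseudocount of 0.01, 29 genes were higher in place of 83. FBXL14, MKRN3 and FOXB1 each missed the test in at least 4 of the 6 fits that left out 1 library (limma adjusted p up to 0.137, 0.117 and 0.225), and FOXB1 also missed it without limma's trend (limma adjusted p = 0.0608).

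Among the falls that were largest, RPL37, a protein of the large ribosomal subunit, had primary TPM of 2.11, 2.89 and 2.07 in total RNA and of 49.0, 51.8 and 59.2 at 60 min. Its shares were 0.135%, 0.321% and 0.277% against 40.9%, 35.8% and 32.5%, and the ratio fell by 7.90 (SE 0.42, limma adjusted p = 3.85e-07). ATP5MF, a subunit of the mitochondrial ATP synthase, had 0.0415%, 0.0634% and 0.00617% against 14.8%, 8.99% and 10.8%, and its ratio fell by 8.04 (SE 0.48, limma adjusted p = 4.35e-07). Both genes had much mature RNA at steady state, at least 486 TPM in each total library.

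The other genes with falls of this size had little or no mature RNA in labelled libraries. C4orf48 was listed at 0 mature TPM in all 3, CFAP298-TCP10L, SNHG25 and EXOSC10-AS1 in 2 of 3, and DNAJC25-GNG10 was at 0.02 to 0.06 TPM, so no fold is given for them. CFAP298-TCP10L and DNAJC25-GNG10 are readthrough entries that share their exons with other genes, and the split of reads between such entries is uncertain.

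The gene lists describe how groups with a known role behaved, beside 81.0% lower and 0.631% higher over all genes and, on the centred scale, 25.2% lower and 20.4% higher. All 74 cytosolic ribosomal protein genes among the 13154 had a lower ratio in total RNA, with a median change of -5.69, and 73 were lower on the centred scale. Their median shares were 0.121%, 0.250% and 0.225% in total RNA and 10.6%, 10.9% and 9.53% at 60 min. RPL4, with 3875 TPM of mature RNA in the poly(A) library, had shares of 0.0121%, 0.0308% and 0.0226% in total RNA and of 0.765%, 0.992% and 0.939% at 60 min. RPL22L1, a paralogue of RPL22, kept more than the others, with 4.62%, 9.17% and 6.41% against 24.96%, 23.2% and 28.2%.

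All 72 nuclear genes for subunits of the respiratory chain were lower (median -5.10), 67 of them on the centred scale too. Their median shares were 0.471%, 0.883% and 0.577% in total RNA against 14.7%, 15.8% and 17.5%. NDUFB6, a complex I subunit, kept 2.58%, 4.16% and 1.69% against 50.4%, 45.8% and 55.9%, and its ratio fell by 4.88 (SE 0.46, limma adjusted p = 2.44e-06). UQCR11, of complex III, had primary RNA listed at 0 in poly(A) and RNase H RNA and 0.03 TPM in Ribo-Zero RNA, against 5.18, 7.97 and 5.65 TPM at 60 min.

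All 31 proteasome genes (median -4.25, 30 lower on the centred scale) and all 20 aminoacyl-tRNA synthetase genes (median -3.52, all 20 on the centred scale) had a lower ratio. PSMD8, of the proteasome lid, had 0.194%, 0.229% and 0.262% in total RNA against 9.81%, 11.1% and 13.1%. QARS1, which loads glutamine onto its tRNA and whose intron is printed above, had 0.227%, 0.321% and 0.253% against 10.3%, 8.40% and 6.70%, and its ratio fell by 4.66 (SE 0.38, limma adjusted p = 1.13e-06). Of 74 mitochondrial ribosomal protein genes, 72 were lower (median -3.69) and on the centred scale 53 were lower and 2 higher. MRPS25 kept the most of them, with 10.7%, 15.6% and 12.6% against 34.3%, 38.5% and 37.3%.

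The genes of the cell cycle moved the same way. All 27 mitotic genes passed the test (median -3.14), 16 of them on the centred scale. CDC20, the activator of the anaphase-promoting complex, had 0.870%, 0.917% and 0.922% in total RNA against 11.97%, 13.1% and 13.8%, and its 3 total libraries agreed closely. Of 9 MCM helicase genes 8 were lower. MCM7, whose intron is printed above, had 0.413%, 0.690% and 0.455% against 6.08%, 6.54% and 6.81%, and its ratio fell by 3.67 (SE 0.37, limma adjusted p = 3.93e-06), and MCM9 had 4.75%, 6.40% and 3.69% against 4.33%, 9.75% and 10.2%, with overlapping groups.

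Genes of the splicing machinery had lower ratios throughout. All 53 core spliceosome genes (median -3.25), all 26 HNRNP genes (median -3.30), which coat pre-mRNA, and all 13 genes of SR proteins (median -2.62), which recruit the spliceosome to exons, had lower ratios. On the centred scale 31, 17 and 5 of them were lower and none was higher in any of these 3 lists. SNRPD2, an Sm core protein, had 0.165%, 0.343% and 0.24% against 14.7%, 13.5% and 13.6%. SRSF1 had 0.609%, 1.08% and 0.302% against 9.82%, 10.0% and 8.38%, and its ratio fell by 4.00 (SE 0.45, limma adjusted p = 7.52e-06). SF3B4 was uneven between methods, with 3.41%, 8.56% and 22.2% in poly(A), RNase H and Ribo-Zero RNA.

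In the list of CLK kinases, which phosphorylate SR proteins, and of genes known for detained introns, 9 of 23 genes were higher and 1 was lower on the centred scale. Without centring 21 of the 23 were lower (10 with a pseudocount of 1), with a median of -1.62 against -2.24 over all genes. Their median shares were 1.90%, 2.11% and 2.58% in total RNA, beside 2.04%, 3.27% and 2.43% over all genes. In labelled RNA they were 6.73%, 8.96% and 8.59%, each below the 11.4%, 15.9% and 17.3% of all genes. CCNL1, a cyclin of splicing speckles whose intron is printed above, had 5.22%, 8.72% and 7.24% in total RNA against 9.15%, 13.3% and 13.5%. Its ratio did not pass the test (change -0.81, SE 0.40, limma adjusted p = 0.0800), and it was higher than the typical gene on the centred scale (1.40, limma adjusted p = 0.0017), and without A it passed the test uncentred (-1.02, limma adjusted p = 0.0352). SNRNP70, the U1-70K protein, had 0.516%, 1.35% and 0.996% against 11.3%, 12.5% and 12.8%, and was the member that was lower on the centred scale (-1.65, limma adjusted p = 0.00196).

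Zinc finger genes with ZNF symbols, mostly repressors of transposons and of other genes, were the largest list. Of 428 genes, 286 were lower and 3 higher (median -1.27), which is 66.8% lower beside 81.0% of all genes. With a pseudocount of 1, 84 were lower and 32 higher. On the centred scale 211 (49.3%) were higher and 10 lower. Their median share was 4.42%, 6.12% and 4.62% in total RNA, above that of all genes in each library, and 11.3%, 16.3% and 16.9% at 60 min, close to that of all genes. Of the 428, 4 were among the 292 genes, which hold 0.790% of all protein-coding genes. ZNF596 had 27.2%, 47.0% and 33.8% in total RNA against 79.2%, 96.1% and 71.1%.

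Immediate early genes, which are switched on within minutes of a stimulus and whose mRNA decays fast, had the smallest change of any list. Of 26 genes, 7 were lower and 1 higher (median -0.49), and on the centred scale 19 were higher and 1 lower. With a pseudocount of 1, 2 were lower and 6 higher, and without the poly(A) library 4 were lower and 0 higher. Their median shares were 3.27%, 5.41% and 6.58% in total RNA and 7.21%, 9.86% and 9.64% at 60 min. SRF, the transcription factor that drives many of these genes, behaved otherwise, with 1.54%, 2.77% and 2.51% against 12.6%, 17.97% and 19.4%, and was the member that was lower on the centred scale (-0.72, limma adjusted p = 0.0223). EGR1 showed how 1 library can set a value: its share was 0.829% and 1.36% in poly(A) and RNase H RNA and 43.2% in Ribo-Zero RNA, where its mature RNA was 0.42 TPM. Its change was 0.27 (limma adjusted p = 0.818) and became -1.48 (limma adjusted p = 0.01) without the Ribo-Zero library.

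Stress and regulated genes lay between these lists. Of 20 genes of the ATF4 stress response 16 were lower (median -2.19), on the centred scale 6 lower and 4 higher. DDIT4, an inhibitor of mTORC1, had 1.42%, 4.59% and 5.59% in total RNA against 4.67%, 4.96% and 3.44%, with overlapping groups, while SHMT2, of mitochondrial one-carbon metabolism, had 0.197%, 0.350% and 0.451% against 10.7%, 7.77% and 8.74%. Of 20 p53 targets 19 were lower (median -1.88), or 11 with a pseudocount of 1. BAX, which opens the mitochondrial membrane in apoptosis, had 1.28%, 1.89% and 1.86% against 21.5%, 23.8% and 33.4%. Of 25 genes of cholesterol synthesis and uptake 24 were lower (median -3.01). FDPS, an enzyme of that pathway, had 0.773%, 1.13% and 0.794% against 19.3%, 18.8% and 20.3%. Of 16 genes of nonsense-mediated decay, which destroys many transcripts with retained introns, 14 were lower (median -2.11), or 9 with a pseudocount of 1.

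Of 24 snoRNA host genes, whose introns hold small nucleolar RNAs, 23 were lower (median -2.88), and on the centred scale 10 were lower and 2 higher. Their median shares in poly(A), RNase H and Ribo-Zero RNA were 1.97%, 2.63% and 3.10%. Of the 24, 0 were among the 292 genes, which are only 2.22% of all genes, so this count says little about the list. SNHG6 went from 59.2%, 47.5% and 47.7% at 60 min to 1.92%, 1.93% and 3.53% in total RNA, and SNHG12 from 10.0%, 9.26% and 11.1% to 5.93%, 7.06% and 4.92%. Of 8 nuclear long non-coding RNAs among the 13154 genes, 6 were lower (median -2.17). TUG1 had 19.5%, 24.6% and 19.6% in total RNA against 62.3%, 55.2% and 58.9%, and its ratio fell by 2.40 (SE 0.55, limma adjusted p = 0.00157). FTX, of the X-inactivation centre, did not pass the test, with 12.8%, 16.02% and 11.5% against 11.7%, 11.7% and 11.3% (change 0.38, SE 0.39, limma adjusted p = 0.377).

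**Figure D3:**
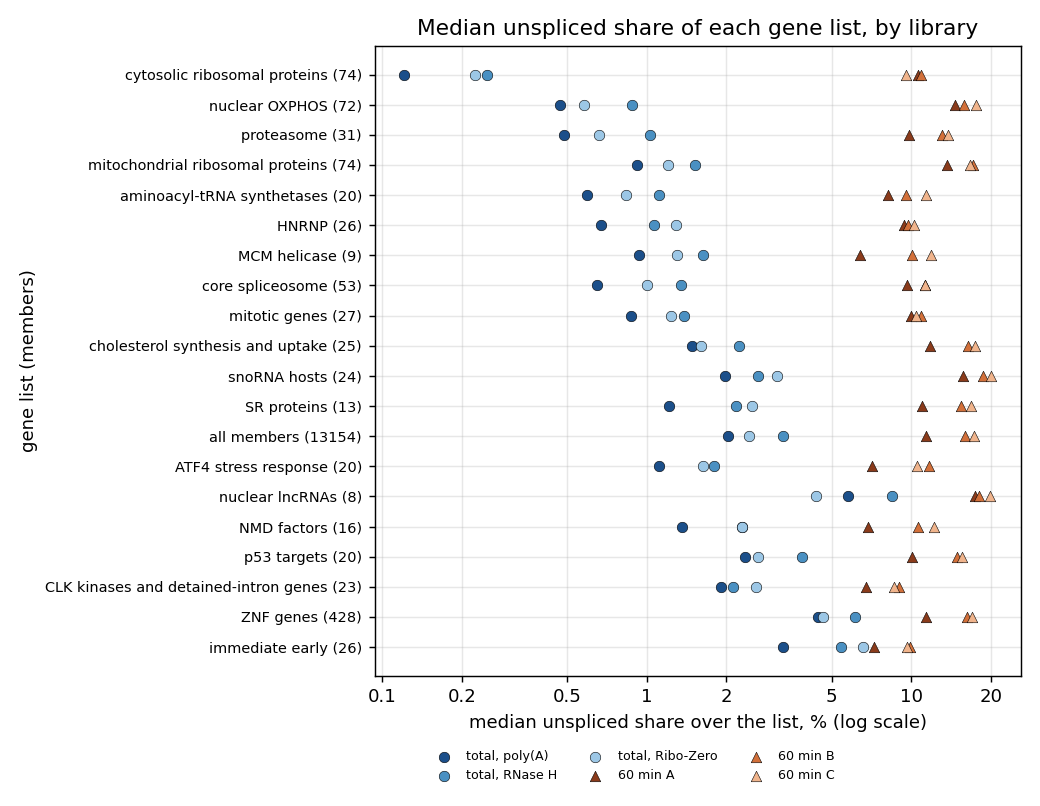
Median unspliced share (x axis, percent, log scale) of each gene list in each library, with the number of member genes in brackets and lists ordered by the median change of the ratio. Circles are total and triangles labelled 60 min libraries. Ribosomal protein genes have circles at 0.121% to 0.250%, and immediate early genes have circles at 3.27% to 6.58%.

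The share at 60 min and the share at steady state ranked genes in part alike (Spearman 0.569 over 13154 genes, which are no independent replicates). Where the mean 60 min share was 40% or more, 259 of 1231 genes (21.0%) were among the 292. Between 20% and 40% this was 27 of 3175 genes (0.850%), and below 20% it was 6 genes in all, in 3 bins with at most 0.157%. The medians of the top bin were 10.7%, 15.4% and 11.6% in poly(A), RNase H and Ribo-Zero RNA, so most genes with much unspliced RNA at 60 min held less than 20% at steady state.

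Scores that the authors deposited for these genes were set beside the shares as a description. The cytoplasmic score, from other libraries, is a log ratio of mature RNA in cytoplasm to nucleus. Genes were put in 4 groups of equal size by this score. In the most nuclear group of 3032 genes the median share was 3.09%, 4.53% and 3.79% in the total libraries, and in the most cytoplasmic group 1.26%, 2.31% and 1.45%. In labelled RNA the same groups had 11.5%, 15.4% and 16.5% against 13.0%, 17.8% and 19.1%. Over 12125 genes its Spearman correlation was -0.327 with the share in total RNA, 0.0748 with the share at 60 min and -0.459 with the change of the ratio. The score and the share both draw on the level of mature RNA, from different libraries.

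The degradation score was estimated by the authors from these labelled and total libraries, so it is not independent. Of 4 groups of equal size, the genes of fastest decay had a median share of 5.03%, 7.69% and 6.02% in total RNA, and 249 of 3031 (8.22%) were among the 292. Among the genes of slowest decay the shares were 0.752%, 1.31% and 0.953%, and none of 3032 genes was among them. At 60 min the groups of fastest and slowest decay had 12.4%, 18.1% and 20.1% against 11.6%, 15.0% and 16.1%. The authors' excised fraction at 60 min was taken as the median over the introns of each gene, for genes with at least 3 measured introns. This median ranked with the share at 60 min (Spearman -0.559 over 2472 genes) and hardly with the share in total RNA (-0.0739).

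**Figure D4:**
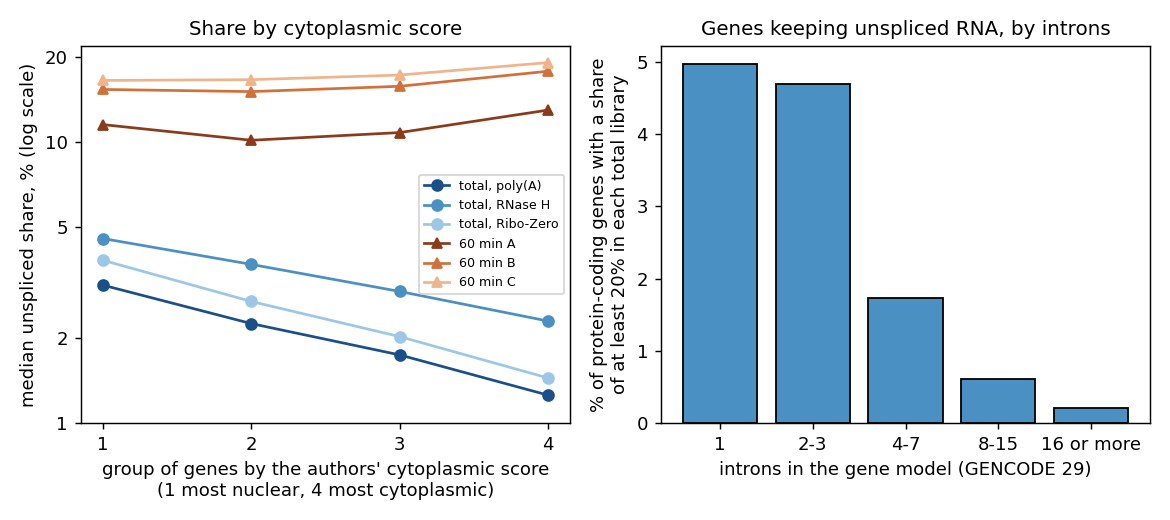
Left, median unspliced share (y axis, percent, log scale) of each library in 4 groups of genes by the authors' cytoplasmic score, with total libraries as circles and labelled ones as triangles. Right, percent of protein-coding genes with a share of at least 20% in each total library (bars), by the number of introns in the gene model. Genes with no intron in the model are not drawn. The circles fall from 3.09% to 4.53% in the most nuclear group to 1.26% to 2.31% in the most cytoplasmic one, and the bars fall from 4.97% to 0.210%.

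The 3 total libraries were compared by values only, since each method had 1 library. Shares ranked genes alike between methods (Spearman 0.879 for poly(A) with RNase H, 0.845 for poly(A) with Ribo-Zero and 0.804 for RNase H with Ribo-Zero). A log2 ratio at least 1 above both other libraries was seen for 62 genes (0.471%) in poly(A), 857 (6.52%) in RNase H and 763 (5.80%) in Ribo-Zero RNA. At least 1 below both others were 751 genes (5.71%) in poly(A), 114 (0.867%) in RNase H and 104 (0.791%) in Ribo-Zero RNA. Poly(A) RNA thus stood below the depleted libraries more often than above them. These ratios were not centred, and the median share of all genes was also lowest in poly(A) RNA (2.04% against 3.27% and 2.43%). A shift of the whole library was thus not taken out of the counts. The counts above both others moved with the pseudocount. With 1 they were 15, 111 and 850 in poly(A), RNase H and Ribo-Zero RNA, and with 0.01 they were 119, 1608 and 663. RNase H RNA had the larger count than Ribo-Zero RNA with 0.1 and 0.01, and the smaller with 1. Where mature RNA reached 1 TPM in each total library and primary RNA 1 TPM in 1 of them, these counts for poly(A) were 88 below and 6 above, of 1886 genes.

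Genes with a lower unspliced share in the poly(A) library were led by SP9, a zinc finger transcription factor. SP9 had a share of 18.04% in poly(A) against 70.9% and 74.0% in RNase H and Ribo-Zero RNA. Its labelled libraries had 29.9%, 32.2% and 22.0%, between them. FOXD1, a forkhead factor of kidney stroma, had 12.3% in poly(A) against 34.3% and 61.7%. SNHG8 had 1.54% against 8.26% and 5.52%, and PRPF38B, a splicing factor, had 2.26% against 6.64% and 6.99%.

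PAXX, a DNA end-joining protein whose intron is printed above, had 1.92% in poly(A) against 5.58% and 5.53%, and RPL36AL had 0.387% against 1.06% and 1.55%. In PAXX the primary TPM were 1.38, 1.58 and 2.01 and the mature TPM 70.5, 26.7 and 34.4, so the libraries differed mainly in mature RNA.

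Genes with a higher unspliced share in the poly(A) library were ZNF587B, SNHG20 and PIP4P1, a lipid phosphatase. ZNF587B had 19.9% against 1.84% in RNase H and 0.309% in Ribo-Zero RNA. SNHG20 had 6.94% against 0.991% and 1.79%, and PIP4P1 had 8.67% against 3.39% and 1.57%. PCBD2, a pterin dehydratase, had 84.0% and 74.6% in poly(A) and RNase H and 16.3% in Ribo-Zero RNA, so Ribo-Zero stood apart. GENCODE 29 places a copy of a mitochondrial gene, MTND6P4, on the same strand within the PCBD2 locus. DMTF1-AS1 had 51.9% against 35.4% and 25.6%. In both PCBD2 and DMTF1-AS1 the unspliced ratio in poly(A) was above that in RNase H RNA by 0.90 on the log2 scale, short of the difference of 1 behind the counts.

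**Figure D5:**
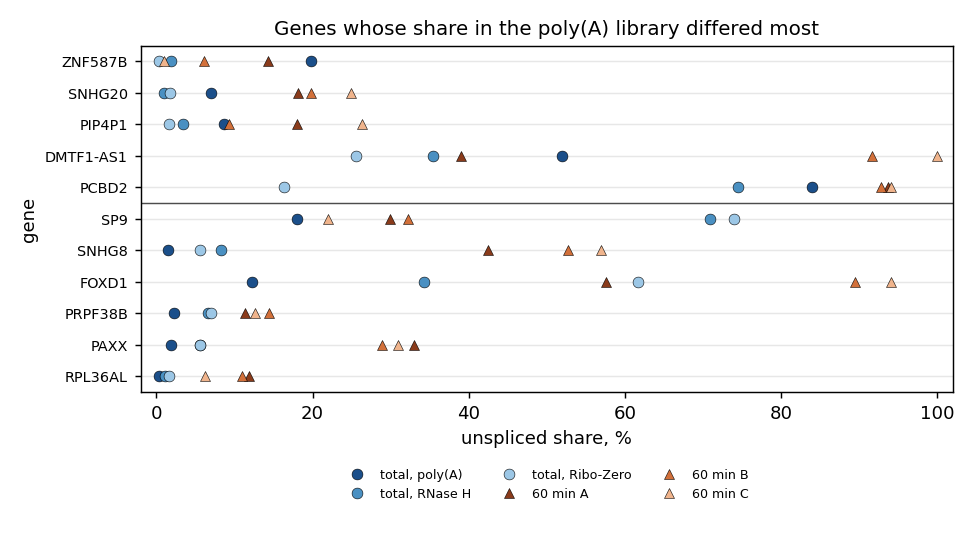
Unspliced share (x axis, percent) of 5 genes among those with the largest difference above (top) and the 6 with the largest difference below (bottom) in poly(A) RNA against the nearer depleted library, with 1 point per library, circles for total and triangles for labelled 60 min libraries. SP9 has its poly(A) circle at 18.04% and its other circles at 70.9% and 74.0%.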

How the data were processed

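The authors deposited TPM for mature and primary transcripts of each gene. Bowtie 1.0.1, RSEM 1.2.11 and the build hg19 were used, per the submitters' processing notes. Per the file headers, the authors added to each GENCODE 19 gene an isoform that spans its locus, the primary transcript, before RSEM. The excised share of introns was deposited as a fraction, the degradation rate on a log10 scale and the cytoplasmic balance as a centred score, per the file headers. TPM give no depth, so no counting error could be set.

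The 3 total and 3 labelled 60 min libraries were compared with limma 3.58.1 (trend) in R 4.3.3 on log2((primary + 0.1)/(mature + 0.1)) and on log2(primary + 0.1), with Benjamini-Hochberg adjustment over the 13154 genes, after a check on simulated data. Medians per library had an exact permutation test. Symbols, types and gene structure came from GENCODE 29 (GRCh38), where 12428 of the 13154 entries had a type; 375 entries had values identical to another entry (patch or haplotype copies) and were kept.

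Named were the 16 coding and 8 other genes with the highest lowest share in total RNA at 0.5 TPM or more of both transcripts in each total library, up to 8 rises and 8 falls of the ratio at means of at least 1 TPM, the 6 largest differences of poly(A) RNA in each direction, and from each list the members of highest and lowest share and of largest and smallest change, of which some are described. Pseudogenes and genes without a symbol were counted only, and a few genes that met the rule are not reported here. The genes and lists were chosen with earlier results of these data known. Alternatives were other pseudocounts, filters, scalings, a fit on every library of the series, and leaving out each library.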

Additional observations from a re-analysis of the deposited data

How the results depend on the processing

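No paired analysis was possible because A, B and C and the 3 total libraries share no label. The count of 10652 genes with a lower ratio was 7094 with a pseudocount of 1 and 3317 with centred ratios, and 9560 to 11334 without 1 library. The count of 83 with a higher ratio was 476 with a pseudocount of 1, 29 with 0.01, 227 over all 27696 genes with a primary value above 0, 11 at a mean primary level of at least 1 TPM, 44 in a fit on all libraries, 2680 with centred ratios, and 55 to 107 without 1 library, 55 being without RNase H. For primary TPM, the 12905 lower genes became 370 with median-ratio scaling, 419 with quantile normalization and 404 with primary TPM rescaled to 1 sum, and lay between 12826 and 12975 without 1 library. The 10 higher genes became 437, 547 and 303 with those scalings, 103 over all genes, 0 at a mean primary level of at least 1 TPM (0 at an unadjusted p under 0.05 in limma too), 5 on all libraries, and 9 to 21 without 1 library. The difference of the median share was -12.3 and -14.0 to -11.1 without 1 library, where 2 against 3 libraries allow no p under 0.2. The 292 genes were 798 at 10% and 53 at 50%, and 323 to 389 without 1 total library. For poly(A), 62 genes above and 751 below became 19 and 43 at a difference of 2, 15 and 336 with a pseudocount of 1, 119 above with 0.01, and 6 and 88 at the higher levels. Of the genes named, EGR1 turned from 0.27 to -1.48 without Ribo-Zero and was at most 1.24 without another library. Where values moved, the cause was not tested. Depth is unknown, and most primary levels in total RNA were under 1 TPM, where the pseudocount weighs most.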
